A study of Mus musculus with 7 samples.

Results

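Noncoding RNAs that could be measured in whole mouse islets were described here. They were chosen by their scanner flags, as the array probes whose RefSeq accession begins with NR_, the prefix for noncoding transcripts, and whose spots were well above background on all 7 arrays (for a probe spotted more than once, on at least 50% of its spots on each array). Of 2477 such noncoding probes among the 56605 probes of the array, 504 (20.3%) met this rule, and they stood for 465 genes or accessions. Because the rule asked for signal in every mouse, the members are the noncoding RNAs bright enough to be read in both groups, and that they were detected is not itself a result.

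The islets came from 3 control mice, Wnt4 fl/fl without Cre, and 4 Wnt4βKO mice, Pdx1CreER;Wnt4 fl/fl, which were littermates. Both groups received tamoxifen by gavage at an age of 4 to 5 weeks, and islets were collected at 7 weeks. The study's methods describe the Wnt4βKO mice used for the arrays as male. The Cre-ER is driven by the Pdx1 promoter, and no group carried Pdx1CreER without the floxed Wnt4 alleles, so the Cre transgene and the loss of Wnt4 cannot be told apart. For each mouse 50 ng of RNA was labelled with Cy3 and hybridised to a 1-colour Agilent mouse array. All values are log2 intensities after background correction and quantile normalization, and values by mouse are given in the order control 2, 3 and 4, then Wnt4βKO 1, 2, 3 and 4. A difference is Wnt4βKO minus control on this log2 scale. Each array is 1 mouse, and p-values measure the spread between these 7 samples.

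Long noncoding RNAs (lncRNAs) are transcripts that are not translated into a known protein, and many are transcribed next to, or on the strand opposite to, a coding gene. Transcribed pseudogenes are copies of coding genes that no longer encode the parent protein. Small nucleolar RNA (snoRNA) host genes carry snoRNAs, which guide chemical modification of ribosomal RNA, in their introns, and structured small RNAs form the RNA cores of machines such as RNase P and the spliceosome. In β cells, lncRNAs have been studied mainly as neighbours of transcription factor genes.

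Wnt4 itself read 11.56, 11.17 and 11.77 in the controls and 11.30, 10.80, 11.04 and 10.92 in Wnt4βKO islets, a difference of -0.49 ± 0.17 (SE, past the unadjusted threshold of 0.05, adjusted p = 0.651) in which the groups overlapped. All 7 arrays were on 1 slide, in 2 rows that each held both groups, and their values correlated at r of 0.962 to 0.984 across probes. No spot was saturated. The insulin gene Ins2, the defining product of β cells, read 15.67 or 15.82 on each of the 7 arrays. Quantile normalization gives each rank the same value on every array. The brightest probes can therefore take only a few values, and their steadiness is partly set by the method. The second insulin gene, Ins1, read 15.26, 15.26 and 15.06 in the controls and 15.59, 15.33, 15.59 and 15.42 in Wnt4βKO islets, every Wnt4βKO array above every control (+0.29 ± 0.10, SE, adjusted p = 0.632). Of 9 β cell genes, 2 passed the unadjusted threshold, Ins1 among them, and 4 of the 9 were lower. Over all tested probes, 6.96% passed it. Between 603 and 674 of the noncoding probes were well above background per array. The mean log2 level of 19 acinar genes, the digestive-enzyme genes of exocrine pancreas, was 13.78, 13.61 and 13.60 in the controls and 12.72, 13.49, 13.42 and 12.95 in Wnt4βKO islets. Every Wnt4βKO array was below every control there. Of the 19 genes, 16 were lower and 5 passed an unadjusted limma p of 0.05, beside 6.96% of all tested probes. The summed acinar intensity was 417810 to 448652 in controls against 282195 to 398639 in Wnt4βKO islets. In bulk islets, fewer cells of a type and less RNA per cell cannot be told apart. The summed level of the immune markers was 1013 to 1250 in controls and 978 to 2568 in Wnt4βKO islets.

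The scanner files carry no probe sequences, so the promoters of the members that the results turn on are shown from RefSeq, assembly GRCm38.p6, as 250 bases before to 50 bases after a gene's start. In the main fit, the lncRNA Plut had the most negative difference among the members past the unadjusted threshold, and Snhg16 was the snoRNA host past it. Snhg8 is shown as a host whose promoter holds all 3 of the motifs searched, as that of Snhg5 also does. The GC box was searched as GGGCGG, the usual Sp1 motif. The box upstream of many housekeeping genes named for its letters was searched as CCAAT. The motif of the TATA-binding protein was searched as TATAAA, and all were searched on both strands. Capitals mark the matches, each sequence is on the strand of its gene, and the motifs do not overlap each other here.
Plut, chr5:147271472-147271771, minus strand: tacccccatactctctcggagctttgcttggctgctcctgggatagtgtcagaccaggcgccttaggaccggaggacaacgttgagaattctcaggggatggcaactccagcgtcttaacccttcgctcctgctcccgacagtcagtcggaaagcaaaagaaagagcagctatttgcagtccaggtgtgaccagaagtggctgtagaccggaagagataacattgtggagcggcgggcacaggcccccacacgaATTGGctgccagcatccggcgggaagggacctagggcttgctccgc
Snhg16, chr11:116671410-116671709, plus strand: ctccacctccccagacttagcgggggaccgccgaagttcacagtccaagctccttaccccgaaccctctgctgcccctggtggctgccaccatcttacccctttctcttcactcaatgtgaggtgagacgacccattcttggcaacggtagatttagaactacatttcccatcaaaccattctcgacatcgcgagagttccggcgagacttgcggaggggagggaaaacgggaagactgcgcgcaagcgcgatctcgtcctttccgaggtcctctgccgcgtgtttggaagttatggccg
Snhg8, chr3:123508287-123508586, minus strand: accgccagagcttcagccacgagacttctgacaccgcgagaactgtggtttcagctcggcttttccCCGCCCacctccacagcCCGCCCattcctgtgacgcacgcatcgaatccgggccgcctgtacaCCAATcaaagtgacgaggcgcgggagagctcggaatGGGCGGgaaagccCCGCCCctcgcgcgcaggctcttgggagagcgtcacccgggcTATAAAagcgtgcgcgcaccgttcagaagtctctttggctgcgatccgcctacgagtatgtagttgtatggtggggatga

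The Plut window held 1 CCAAT match, on the opposite strand, and the Snhg16 window held none of the 3 motifs. A promoter was found in the table for 292 of the 438 named member genes. The rule had not used base composition. The median ratio of observed to expected CpG was 0.696 over the member promoters, 0.389 over all 27025 promoters of the table, 0.576 over its 17492 protein-coding promoters and 0.248 over its 9533 lncRNA promoters. The members varied among themselves, with no CpG in the windows of C030034I22Rik and 6430411K18Rik. The median ratio was 0.320 over the 13 promoters of members past the unadjusted threshold as lower and 0.830 over the 12 of those past it as higher. Both sets are small. A GC box was present in 53.8% of the member promoters, 35.9% of all promoters, 46.3% of protein-coding promoters and 16.8% of lncRNA promoters. CCAAT was present in 36.6% of member promoters and 37.9% of all promoters, and TATAAA in 9.59% and 14.2%. Among the 12 snoRNA host genes with a promoter, 6 held TATAAA and 8 held a GC box. Of the lists examined these hosts had the most CpG, with a median ratio of 0.960. A match is a description of these letters and says nothing of binding.

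Among the genes with a member probe, 15 were found to span 1 or more microRNA genes, 38 microRNA genes in all with 70 mature microRNAs. These 15 include the coding genes Ppp1r12b and Etfb. The search did not cover every chromosome and needed a promoter in the table, so the counts can be incomplete. The array did not measure mature microRNAs, so the values below are those of the host transcripts. Mature sequences are shown for hosts named in the results, with the seed, bases 2 to 8, in capitals.
miR-182-5p, in Mirc35hg: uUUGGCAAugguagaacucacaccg
miR-96-5p, in Mirc35hg: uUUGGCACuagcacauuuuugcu
miR-183-5p, in Mirc35hg: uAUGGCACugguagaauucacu
miR-22-3p, in Mir22hg: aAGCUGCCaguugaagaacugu
miR-433-3p, in 6430411K18Rik: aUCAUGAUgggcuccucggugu
miR-16-5p, in Dleu2: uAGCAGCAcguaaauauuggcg
miR-410-3p, in Mirg: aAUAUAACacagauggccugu
miR-344e-3p, in A230057D06Rik: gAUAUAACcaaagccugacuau
miR-294-3p, in D7Ertd143e: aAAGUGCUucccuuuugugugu
miR-295-3p, in D7Ertd143e: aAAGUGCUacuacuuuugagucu

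The 70 mature microRNAs carry 60 seeds. Of those shown, miR-294-3p and miR-295-3p, from 1 host, share a seed, and so do miR-410-3p of the Mirg host and miR-344e-3p of the A230057D06Rik host, which lie on different chromosomes. Mirc35hg, the host of the miR-182, miR-96 and miR-183 cluster, read 6.72, 6.56 and 6.61 in controls and 7.29, 6.45, 6.80 and 6.88 in Wnt4βKO islets, and the groups overlapped (+0.22 ± 0.18, SE, adjusted p = 0.869). Mir22hg differed by +0.09 ± 0.09 (SE, adjusted p = 0.894). For Dleu2, the host of miR-16, the difference was -0.17 ± 0.10 (SE, adjusted p = 0.803). The D7Ertd143e probe, from the host of the miR-290 cluster known from embryonic stem cells, lay near the dim end at 6.29 in controls and 6.40 in Wnt4βKO islets. A230057D06Rik differed by -0.05 ± 0.14 (SE). Of the hosts shown here, the transcript of 6430411K18Rik alone passed an unadjusted p of 0.05, and it is described with the higher members.

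Like the probes of the array as a whole, noncoding probes fell mostly into 2 classes, those seen on every array and those seen on none. Of the 2477, 1661 (67.1%) were well above background on none of the 7 arrays and 51 on 6 of them. Over all probes of the array, 47.5% were well above background on none and 37.7% on all 7. Of the messenger RNA probes, with an NM_ accession, 15522 (52.4%) were well above background on all 7 arrays, a larger share than the 20.3% of the noncoding probes. The level of a probe averaged over the 7 arrays had a median of 6.70 over the members, with quartiles of 6.27 and 8.05 and a range from 5.97 to 15.62. At the threshold of the rule, the 20 dimmest members lay between 5.97 and 6.04, and the 51 noncoding probes on 6 of 7 arrays lay between 5.93 and 6.37. By RefSeq class, 359 member probes were lncRNAs, 80 were transcribed pseudogenes with a median level of 7.95, 15 belonged to coding genes that also have a noncoding transcript, and 30 had an accession with no entry in the gene table. The remaining 20 member probes were for structured RNAs, namely 7 of the small nuclear RNA class, 4 of the RNase P class, 3 snoRNAs, 2 listed as ribosomal and 1 each of 4 other kinds.

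The brightest noncoding signals included ribosomal RNA and transcribed pseudogenes, and their spread between mice differed widely. In Wnt4βKO islets the probe of NR_003280 ranged from 11.11 to 13.06, while that of the pseudogene Gm5766 ranged from 12.09 to 12.25. The median SE was 0.19 over the members above a level of 10 and 0.12 over all members. Intensities of different probes depend on the probe as well as on the transcript, so the order is an order of signals and not of abundance. Pseudogene probes can also hybridise with the parent transcript, and their part in these signals was not tested. The brightest probe, of accession NR_003278, read 15.59, 15.59 and 15.42 in controls and 15.67, 15.59, 15.82 and 15.67 in Wnt4βKO islets. Among the 20 brightest it was the only one with every Wnt4βKO array above the controls, Wnt4βKO 2 by less than 0.01, and the difference of +0.15 ± 0.08 (SE, adjusted p = 0.785) did not pass. Its values, too, were among the few that quantile normalization gives the brightest probes, so these steps reflect changes of rank. Rn28s1, the 28S ribosomal RNA, followed at a mean of 14.81 in controls and 14.91 in Wnt4βKO islets. The small RNA Rn4.5s was more variable, with controls at 14.49, 13.96 and 12.86. By the class listed in the gene table, the 20 brightest genes held 10 transcribed pseudogenes, 4 lncRNAs and 1 coding gene. A further 2, Rn28s1 and Rn4.5s, were listed as ribosomal, and 3 had no entry, so their class is not given here.

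The 2 brightest lncRNAs with a known role were Norad, which binds Pumilio proteins and is activated by DNA damage, and Meg3, the maternally expressed RNA of the imprinted Dlk1-Dio3 region. Norad read 12.31, 12.29 and 12.09 in controls and 12.07, 12.03, 12.13 and 12.20 in Wnt4βKO islets, with an SD of 0.07 (n = 4) in the latter. Its difference was -0.12 ± 0.08 (SE, adjusted p = 0.844), and its other 2 probes were also below 0, at -0.07 and -0.26. Meg3 read 12.47, 11.66 and 11.78 in controls and 11.71, 11.88, 12.22 and 12.19 in Wnt4βKO islets, so the spread between controls (SD 0.43, n = 3) was larger than the difference of +0.03 ± 0.22 (SE). Its 4 member probes all lay above 0, from 0.03 to 0.43, and none passed. Of the 20 brightest, 18 had overlapping groups, where 7.24% of all tested probes did not overlap. An unadjusted limma p of 0.05 was passed by 2 of the 20, beside 6.96% of all tested probes. One was the pseudogene Gm6548, whose controls at 12.60, 12.78 and 12.54 were all above the Wnt4βKO arrays at 12.37, 12.41, 12.53 and 12.20 (-0.26 ± 0.10, SE, adjusted p = 0.676). The other was the pseudogene Gm12070, with controls at 11.51, 11.49 and 11.64 and Wnt4βKO arrays at 12.24, 11.51, 12.04 and 11.99, of which Wnt4βKO 2 lay among the controls (+0.40 ± 0.16, SE, adjusted p = 0.700).

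**Figure D1:**
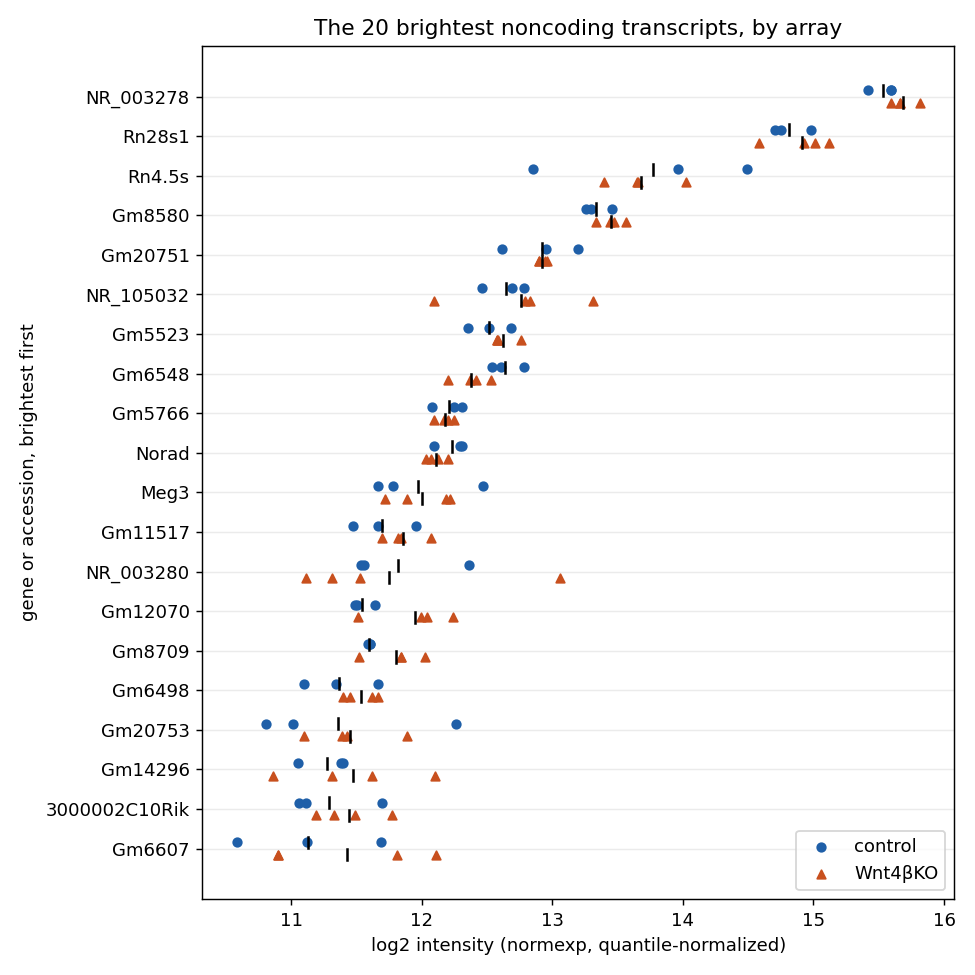
Log2 intensity (x axis) of the 20 brightest noncoding genes or accessions (y axis, brightest probe of each), with circles for the 3 control and triangles for the 4 Wnt4βKO arrays and black bars for group means. In 18 of the 20 the groups overlap, and Gm6548 is the one whose Wnt4βKO arrays all lie below the controls.

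The next comparison asked which of these noncoding RNAs differed between Wnt4βKO and control islets. No member passed the adjusted threshold of 0.05 over the 26151 tested probes, in limma with Benjamini-Hochberg adjustment, where 4 probes (0.0153%) did in all, and the lowest adjusted p of a member was 0.494. At an unadjusted limma p of 0.05, the threshold the study used, 40 of the 504 members (7.94%) passed, beside 6.96% of all tested probes and 7.98% of all probes seen on 7 arrays. The members' share was therefore close to the background. Of the 40, 24 were higher (4.76% of members, background 3.33%) and 16 lower (3.17%, background 3.63%). The groups did not overlap for 42 members (8.33%, background 7.24%), and 24 (4.76%, background 4.72%) both passed and did not overlap. Without Wnt4βKO 1, 23 members (4.56%) passed the unadjusted threshold, beside 5.68% of all tested probes. With the acinar mean as a covariate 13 did (2.58%), beside 2.40% of all tested probes. The acinar mean itself separated the groups, so a fit that holds it can take up part of the group difference. Losing the threshold in that fit, here or for a single member below, cannot tell genotype and acinar level apart.

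As a whole, the members lay slightly above 0. The median difference was 0.035 over the members, 0.0027 over all tested probes and -0.0051 over messenger RNA probes on all 7 arrays, and 307 of 504 members (60.9%) lay above 0 against 50.9% of all tested probes. Differences ran from -0.74 to 1.18, and 295 of the 504 members had a level below 7, where the median size of a difference was 0.076. Of the 2 larger classes, transcribed pseudogenes had a median of 0.064 with 6 higher (7.5%) and 1 lower (1.25%) past the unadjusted threshold, and lncRNAs a median of 0.028 with 14 higher (3.90%) and 13 lower (3.62%), where the background was 3.33% higher and 3.63% lower. Under median scaling in place of quantile normalization, 3.17% of the members passed the threshold, beside 2.94% of all tested probes. Their split was 5 higher and 11 lower, and the background in each direction is not given for this setting. The median difference was then 0.019 over the members and -0.015 over all tested probes. The excess of higher calls thus depended on the normalization, while the members' median stayed above that of all tested probes.

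**Figure D2:**
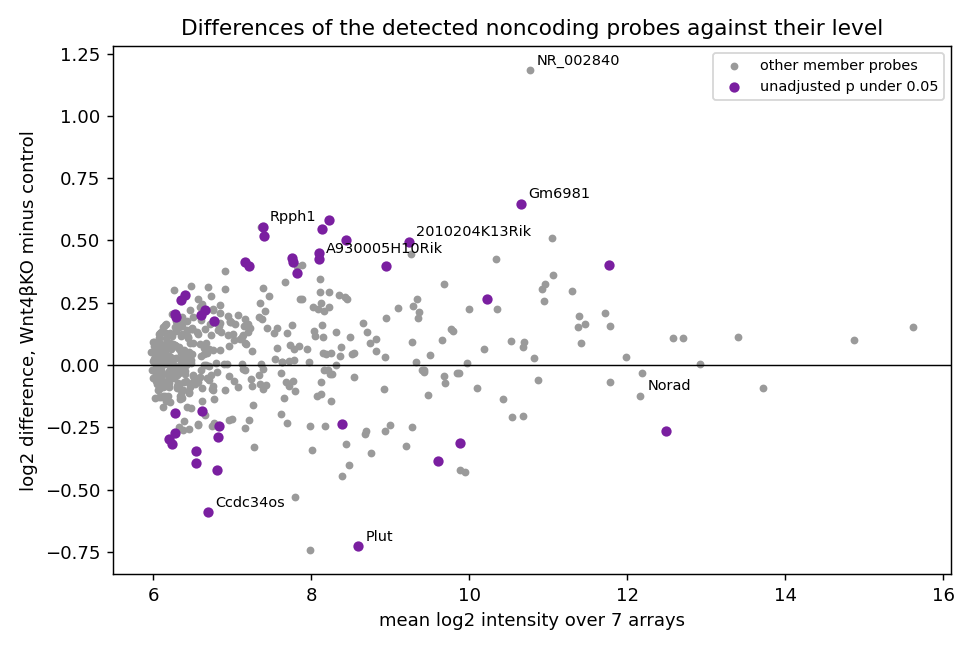
Difference in log2 intensity, Wnt4βKO minus control (y axis), against the mean log2 intensity over 7 arrays (x axis) for the 504 member probes, with the 40 past an unadjusted limma p of 0.05 in purple. Most members lie below a level of 7 and close to 0, Plut is the most negative of the purple points, and the highest point, NR_002840, did not pass.

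Of the 24 higher members past the unadjusted threshold, 14 were lncRNAs, the class of 359 of the 504 members. The 12 with the largest rise among those that passed the unadjusted threshold without overlap were Gm6981, Pisd-ps1, 2010204K13Rik, Macroh2a3, Zfp783, A930005H10Rik, 9330133O14Rik, 1700012D01Rik, Snhg16, 2700046G09Rik, Stk35os1 and 6430411K18Rik, with differences from +0.65 down to +0.20. The lncRNA 2010204K13Rik (NR_027925) read 8.85, 8.85 and 9.15 in controls and 9.55, 9.50, 9.28 and 9.45 in Wnt4βKO islets. All 4 Wnt4βKO arrays were above the highest control, by +0.50 ± 0.11 (SE, adjusted p = 0.494) on average, to 141% of control. A930005H10Rik (NR_027894), a lncRNA that starts head to head with Dph5, a gene of diphthamide synthesis, read 7.84, 7.72 and 7.99 in controls and 8.39, 8.18, 8.27 and 8.26 in Wnt4βKO islets. These groups were also separate and tight (+0.43 ± 0.09, SE, adjusted p = 0.494), and its second, dimmer probe differed by +0.20. Zfp783 (NR_027963), listed as a lncRNA in a cluster of zinc finger genes, read 7.47, 7.46 and 7.59 and then 7.97, 7.72, 8.07 and 7.98. Its lowest Wnt4βKO value, on array 2, was still above the highest control (+0.43 ± 0.10, SE, adjusted p = 0.494).

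The other higher members had smaller differences or a wider spread. Pisd-ps1, a pseudogene of phosphatidylserine decarboxylase, read 8.16, 8.07 and 8.22 in controls and 8.69, 8.57, 9.09 and 8.25 in Wnt4βKO islets (+0.50 ± 0.18, SE, adjusted p = 0.665), with Wnt4βKO 4 just above the controls. The histone-variant pseudogene Macroh2a3 had a mean of 7.85 ± 0.14 (SD, n = 3) in controls and 8.30 ± 0.29 (SD, n = 4) in Wnt4βKO islets (+0.45 ± 0.16, SE, adjusted p = 0.660). The lncRNA 9330133O14Rik read 7.60, 7.39 and 7.61 in controls and 8.07, 7.84, 7.81 and 8.07 in Wnt4βKO islets (+0.41 ± 0.10, SE, adjusted p = 0.527). The lncRNA 1700012D01Rik starts head to head with Nab2, a corepressor of early growth response factors. It read 7.05, 6.76 and 6.96 in controls and 7.32, 7.15, 7.30 and 7.58 in Wnt4βKO islets (+0.41 ± 0.12, SE, adjusted p = 0.595), while Nab2 differed by +0.21 ± 0.14 (SE, adjusted p = 0.842). Stk35os1, on the strand opposite the kinase gene Stk35, read 6.23, 6.32 and 6.17 in controls and 6.61, 6.47, 6.34 and 6.66 in Wnt4βKO islets, and Stk35 itself differed by -0.02. These values were near the dim end of the members. 6430411K18Rik, which overlaps the retrotransposon-derived gene Rtl1 between Dlk1 and Dio3 and spans miR-433, read 6.20, 6.17 and 6.10 in controls and 6.29, 6.36, 6.30 and 6.50 in Wnt4βKO islets (+0.20 ± 0.08, SE, adjusted p = 0.670). The largest rise, of the pseudogene Gm6981, came with Wnt4βKO 1 far above the rest: the controls read 10.37, 10.40 and 10.09 and the Wnt4βKO arrays 11.56, 10.44, 10.72 and 11.01 (+0.65 ± 0.25, SE, adjusted p = 0.673). Its 3 member probes differed by 0.07 to 0.65, and 1 of them passed. With the acinar mean as a covariate, the difference of Gm6981 was +0.06 and no longer passed the unadjusted threshold.

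Of these 12, 6 stayed past the unadjusted threshold whichever array was left out, namely 2010204K13Rik, Zfp783, A930005H10Rik, 9330133O14Rik, 1700012D01Rik and Snhg16. Under median scaling 2 of the 12 stayed past it, 9330133O14Rik and 1700012D01Rik, while the differences of the 12 were 0.17 to 0.68. With the acinar mean as a covariate 5 of the 12 stayed past it, namely Pisd-ps1, 2010204K13Rik, Zfp783, A930005H10Rik and Snhg16. Of those that did not, Macroh2a3 differed by 0.52 and 6430411K18Rik by 0.20 with the covariate, beside +0.45 and +0.20 without it, and the other 5 by 0.06 to 0.30. In both slide rows, all 12 had the same sign.

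**Figure D3:**
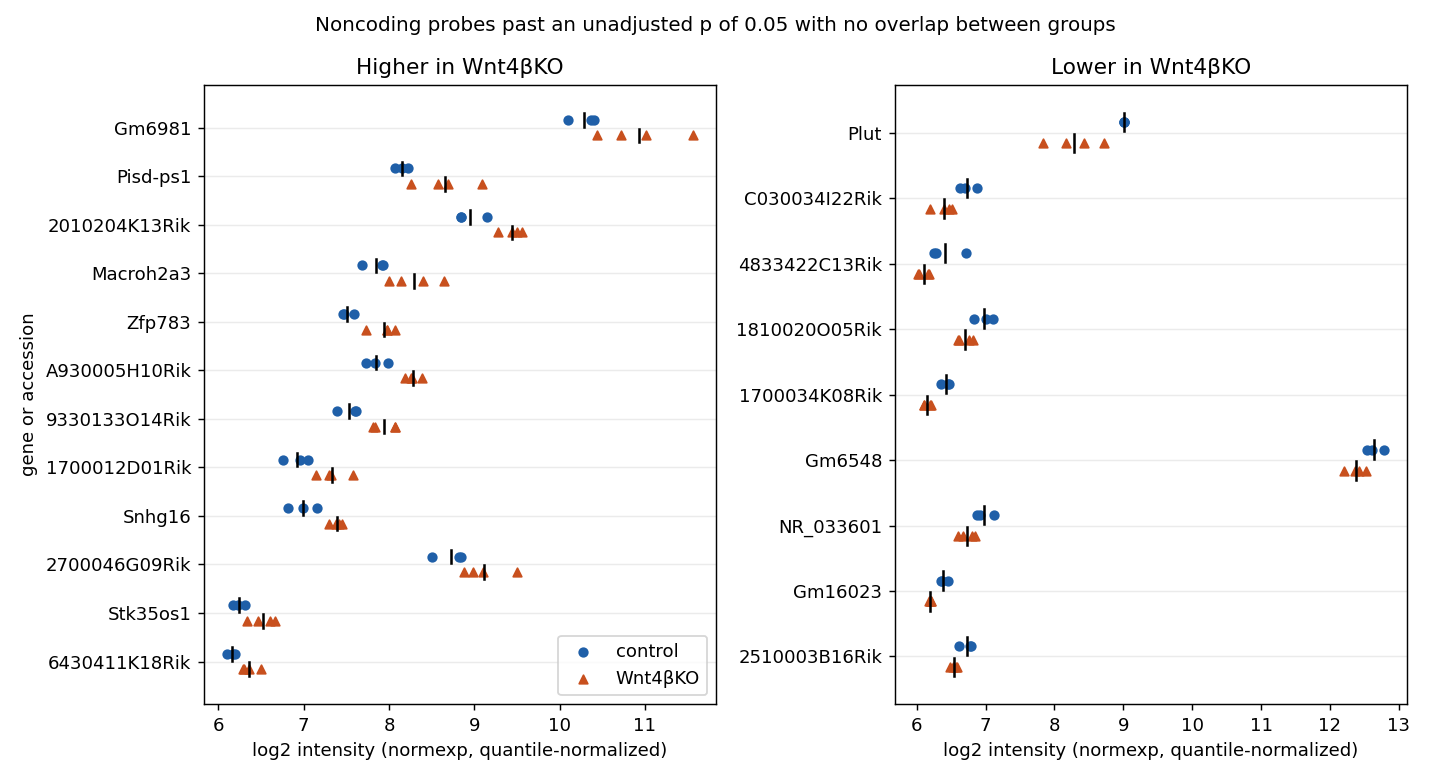
Log2 intensity (x axis) by array for the members past an unadjusted limma p of 0.05 whose groups did not overlap, the 12 largest rises on the left and all 9 falls on the right, with circles for controls, triangles for Wnt4βKO arrays and black bars for group means. The 3 Plut controls fall on 1 point at 9.01, and the Wnt4βKO arrays spread below it.

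In the main fit, Plut had the largest fall of the members that passed the unadjusted threshold. Plut (NR_038157) is transcribed from the Pdx1 locus, overlapping Pdx1, the gene of the transcription factor that governs pancreas formation and β-cell identity. Its single member probe read 9.01, 9.01 and 9.01 in controls and 7.83, 8.43, 8.72 and 8.16 in Wnt4βKO islets. The controls had an SD of 0.00387 (n = 3), and all 4 Wnt4βKO arrays were below them, with an SD of 0.38. The difference was -0.73 ± 0.19 (SE, 95% confidence interval -1.18 to -0.27, adjusted p = 0.557), to 60.5% of control, and it passed the unadjusted threshold. The Pdx1 probe read 7.23, 7.82 and 7.08 in controls and 7.37, 7.17, 7.74 and 7.17 in Wnt4βKO islets, with no such separation (-0.01 ± 0.21, SE, adjusted p = 0.996). The Plut difference ranged from -0.87 to -0.57 when each array was left out in turn and stayed past the unadjusted threshold each time.

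The 2 arrays lowest for Plut were also the lowest for the acinar genes. These were Wnt4βKO 1 and 4, at 7.83 and 8.16 for Plut and 12.72 and 12.95 for the acinar mean. Wnt4βKO 2 and 3, at 8.43 and 8.72 for Plut, had acinar means of 13.49 and 13.42. Of those 2, Wnt4βKO 2 had the higher acinar mean and the lower Plut value. The controls all read 9.01 for Plut, at acinar means of 13.78, 13.61 and 13.60. With the acinar mean as a covariate the Plut difference was -0.26 and no longer passed the unadjusted threshold. Every Wnt4βKO array was below every control in acinar mean, so this fit cannot tell genotype and acinar level apart. Within the slide rows the Plut difference was -0.89 in row 1 and -0.57 in row 2.

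**Figure D4:**
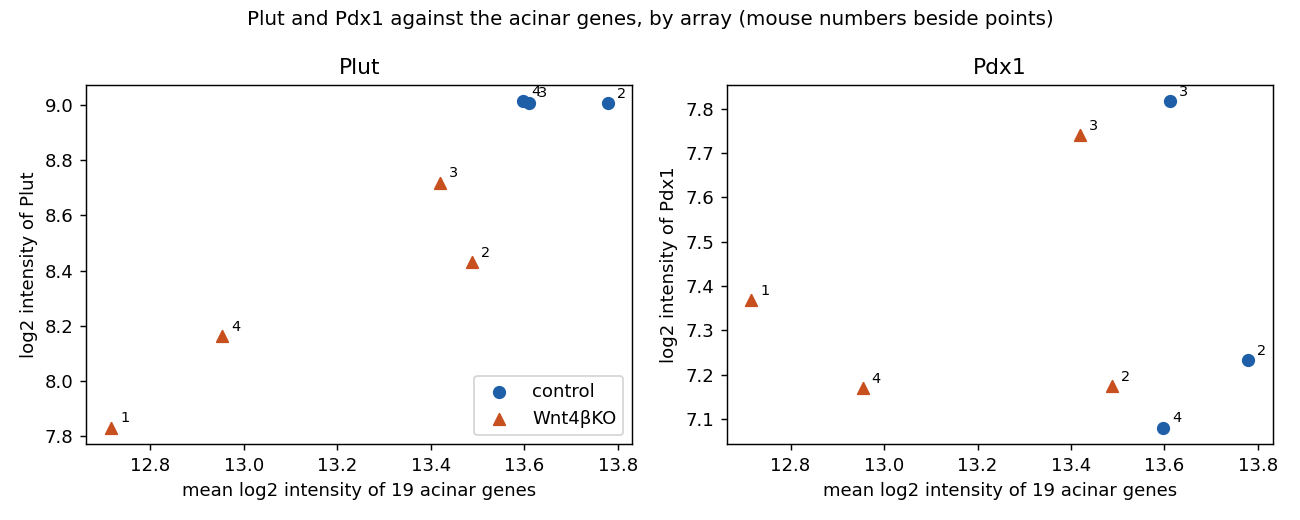
Log2 intensity of the Plut probe (left, y axis) and of the Pdx1 probe (right, y axis) against the mean log2 intensity of 19 acinar genes (x axis) on each array, with circles for controls, triangles for Wnt4βKO and the mouse number beside each point. Plut and the acinar mean are both lowest in Wnt4βKO 1 and 4, while Pdx1 shows no separation of the groups.

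The other 8 falls were smaller in the main fit, from -0.35 to -0.18, and 9 in all, Plut included, met the rule. This order depended on the processing. With a background offset of 0, 4833422C13Rik differed by -0.89, beside -0.84 for Plut. With the scanner's processed signal scaled to its 75th percentile, 1700034K08Rik differed by -1.19, 4833422C13Rik by -1.17 and Gm16023 by -0.99, beside -0.81 for Plut. The rest of the 8 stayed smaller than Plut in both. C030034I22Rik, a lncRNA between Zbtb14 and Akain1, read 6.88, 6.70 and 6.63 in controls and 6.19, 6.47, 6.51 and 6.39 in Wnt4βKO islets (-0.35 ± 0.10, SE, adjusted p = 0.612). The lncRNA 1700034K08Rik read 6.45, 6.36 and 6.47 and then 6.10, 6.20, 6.22 and 6.11, with tight groups (-0.27 ± 0.07, SE, adjusted p = 0.527). Gm16023, which overlaps Slc35e2, had the least spread in Wnt4βKO islets: its controls read 6.45, 6.35 and 6.36 and the Wnt4βKO arrays 6.21, 6.20, 6.20 and 6.18 (-0.19 ± 0.06, SE, adjusted p = 0.632). The probe of 4833422C13Rik that fell by 0.31 had 1 control at 6.72 well above the other 2, and a second probe of the gene differed by +0.05. The rest were 1810020O05Rik (-0.29), Gm6548 (-0.26), NR_033601 (-0.24) and 2510003B16Rik (-0.18). Plut, C030034I22Rik and 1700034K08Rik stayed past the unadjusted threshold whichever array was left out. Under median scaling 6 of the 9 stayed past it, all but 1810020O05Rik, Gm6548 and NR_033601. With the acinar mean as a covariate, 0 of the 9 stayed past it, at differences of -0.26 to -0.13. All 9 had the same sign in both slide rows. A further member that passed with overlapping groups, 1700028J19Rik (-0.30, adjusted p = 0.670), neighbours Klk1, an exocrine kallikrein gene that differed by -1.38 (adjusted p = 0.670).

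The snoRNA host genes were nearly all detected, and 1 member probe (7.14%, background 6.96%) passed the unadjusted threshold. Of the 16 noncoding probes for these hosts on the array, 14 were members, with a median difference of 0.13 beside 0.035 over all members and 0.0027 over all tested probes, and 10 of 14 (71.4%) lay above 0, beside 60.9% of all members. Snhg16 (NR_027821) read 6.99, 7.16 and 6.81 in controls and 7.45, 7.41, 7.38 and 7.29 in Wnt4βKO islets, with every Wnt4βKO array above every control. Its difference was +0.40 ± 0.10 (SE, adjusted p = 0.502). Snhg15 had 2 probes with close values, +0.31 ± 0.14 and +0.27 ± 0.18 (SE), and neither passed. Snhg10 read 7.38, 7.17 and 7.37 in controls and 7.85, 7.30, 7.58 and 7.63 in Wnt4βKO islets (+0.28 ± 0.13, SE, adjusted p = 0.751). The other hosts had a wide spread. For Snhg8, the brightest of them, the Wnt4βKO arrays read 11.10, 11.13, 9.32 and 10.28, so that Wnt4βKO 3 lay far below the controls at 10.77, 10.35 and 10.88 while Wnt4βKO 1 and 2 lay above them.

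Among the structured small RNAs, 14 of 25 probes were members, with a median difference of -0.041, and 1 (7.14%, background 6.96%) passed the unadjusted threshold. Rpph1, the RNA subunit of RNase P, which trims the 5′ ends of transfer RNAs, read 7.33, 6.61 and 7.26 in controls and 7.74, 7.81, 7.26 and 7.68 in Wnt4βKO islets. Wnt4βKO 3 lay below 2 of the controls, so the groups overlapped (+0.56 ± 0.21, SE, adjusted p = 0.670). Its relative Rmrp, the RNA of RNase MRP, differed by -0.12 ± 0.23 (SE, adjusted p = 0.946). Rn7sk, the RNA that holds the elongation factor P-TEFb inactive, differed by 0.0024 ± 0.27 (SE), and Rn7s1, the RNA of the signal recognition particle, by +0.31 ± 0.20 (SE). Neither passed. The snoRNA Snord17 lay lower, with controls at 8.39, 7.78 and 8.12 and Wnt4βKO arrays at 7.16, 8.15, 7.77 and 7.18, and Wnt4βKO 2 lay among the controls (-0.53 ± 0.27, SE, adjusted p = 0.762). Small RNAs of this kind varied more than most members, with a median SE of 0.22 against 0.12 over all members. They were also brighter, with a median level of 7.94 against 6.70, and members above a level of 10 had a median SE of 0.19.

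The imprinted noncoding RNAs gave 11 member probes of 17, from 6 genes, with a median difference of 0.057, and 0 passed (lowest adjusted p 0.834). Rian, a snoRNA-bearing RNA of the Dlk1-Dio3 region, differed by -0.27 ± 0.30 (SE), and Mirg, the microRNA host of the same region, by +0.29 ± 0.23 (SE). Kcnq1ot1, the antisense RNA that silences genes of the Kcnq1 domain, had 3 probes that did not go one way, from -0.22 to 0.28, and its brightest probe ranged from 6.43 to 8.79 among the 3 controls. Airn, the antisense RNA of Igf2r, read 7.07 in controls and 7.19 in Wnt4βKO islets. Of the nuclear and chromatin-associated RNAs, 9 of 17 probes were members and 0 passed (lowest adjusted p 0.791). Neat1, the scaffold of paraspeckles, had 2 probes near the dim end that differed by 0.02 and 0.05. Tug1 differed by -0.10 ± 0.07 (SE) and Firre by +0.15 ± 0.20 (SE). For Jpx, an activator of Xist, the controls at 6.39, 6.40 and 6.45 all lay below the Wnt4βKO arrays at 6.46, 6.46, 6.53 and 6.56, although the difference of +0.09 ± 0.07 (SE, adjusted p = 0.856) did not pass. The Xist probe itself was well above background on 0 of the 7 arrays, and the study describes the Wnt4βKO mice of the arrays as male.

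RNAs annotated on the strand opposite a coding gene gave 30 member probes of 156, with a median difference of 0.022, and 4 passed the unadjusted threshold (13.3%, background 6.96%), 1 higher (3.33%, background 3.33%) and 3 lower (10%, background 3.63%). Stk35os1 was the higher one, given above. Ccdc34os read 7.21, 6.70 and 7.19 in controls and 6.35, 6.71, 6.50 and 6.23 in Wnt4βKO islets, where Wnt4βKO 2 just overlapped the lowest control (-0.59 ± 0.16, SE, adjusted p = 0.574). Its coding partner Ccdc34 differed by -0.10 and did not pass. Fam120aos differed by -0.31 ± 0.13 (SE, adjusted p = 0.704), while Fam120a lay at +0.24. For Ttc39aos1, 1 probe differed by -0.39 ± 0.16 (SE, adjusted p = 0.691) and the other by -0.09, beside -0.13 for Ttc39a. Of the 26 opposite-strand probes whose coding partner was tested, 17 had the same sign as the partner and 9 the opposite sign. Pax6os1, opposite the islet transcription factor gene Pax6, read 8.40, 7.72 and 8.36 in controls and 8.09, 8.25, 7.95 and 8.06 in Wnt4βKO islets (-0.07 ± 0.17, SE, adjusted p = 0.964), and the 2 antisense RNAs of the prohormone convertase gene Pcsk2 differed by +0.0050 and -0.04. Lhx1os, opposite the LIM-homeobox gene Lhx1, differed by +0.31 ± 0.15 (SE, adjusted p = 0.751) and Lhx1 by +0.43, which passed the unadjusted threshold.

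**Figure D5:**
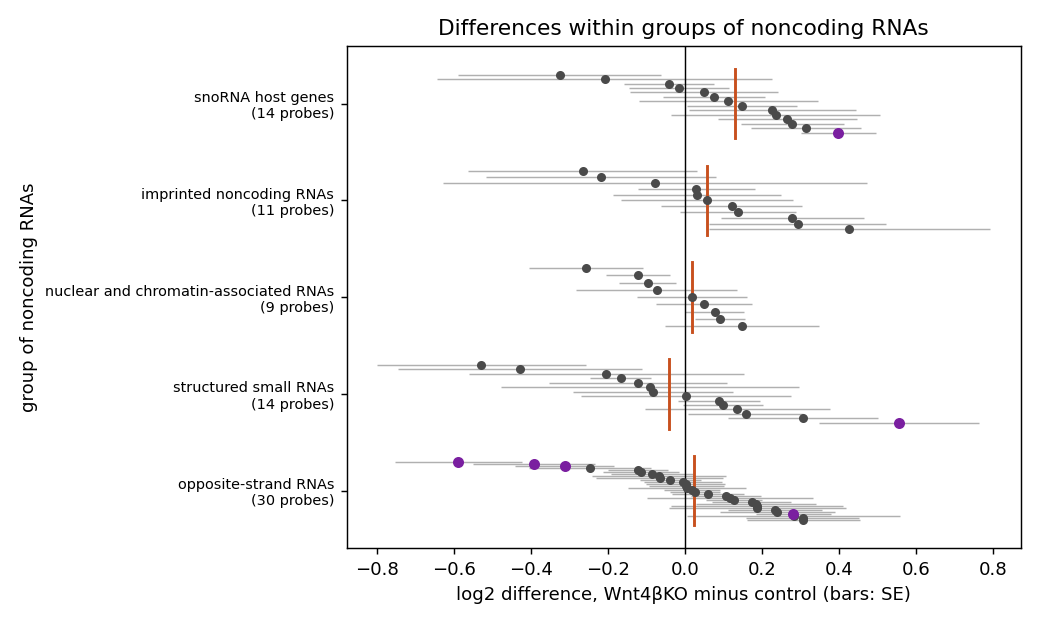
Log2 difference, Wnt4βKO minus control (x axis, bars show the SE), of each member probe in 5 groups of noncoding RNAs (y axis), with purple points past an unadjusted limma p of 0.05 and an orange bar at the median. The snoRNA hosts have the highest median, 0.13, with 1 of 14 past the threshold, and 0 of the imprinted and of the nuclear RNAs passed.

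Many member genes start close to, and on the strand opposite of, a coding gene. A start within 1000 bases of an oppositely transcribed coding gene was found for 88 member genes, and 78 of these pairs had a tested coding probe. The signs were the same in 43 pairs and opposite in 35. Among the 78, the noncoding member passed the unadjusted threshold in 6 and the coding gene in 8, beside 6.96% of all tested probes. In 1 pair both partners passed the unadjusted threshold, the lncRNA Gm4285 (+0.18 ± 0.07, SE, adjusted p = 0.673) and Tpt1, which encodes the translationally controlled tumour protein (+0.34 ± 0.11, SE, adjusted p = 0.631). The Gm4285 controls, at 6.69, 6.66 and 6.67, were all below the Wnt4βKO arrays at 6.78, 6.92, 6.80 and 6.91.

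Where a gene had several member probes, these did not always give 1 answer. There were 33 such genes with 72 probes, all probes of a gene had the same sign in 22 of them, and the median spread between the highest and the lowest difference was 0.12. The widest spread was that of NR_002840. One of its probes had the most positive difference of all members, +1.18 ± 0.61 (SE, adjusted p = 0.762), where the controls read 8.42, 11.28 and 10.56 and the Wnt4βKO arrays 10.99, 11.35, 11.25 and 11.50, with control 2 far below all others. Its second probe differed by -0.09 ± 0.35 (SE). The pseudogene Gm5069 had 3 probes from -0.45 to 0.36. By contrast, the 2 probes of Smarca5-ps differed by 0.02 and 0.03. Of the members that passed with overlapping groups, the lncRNA B230217O12Rik had the most positive difference, with controls at 8.28, 7.65 and 7.76 and Wnt4βKO arrays at 8.51, 8.04, 8.49 and 8.88 (+0.58 ± 0.22, SE, adjusted p = 0.670), where Wnt4βKO 2 lay below the highest control.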

How the data were processed

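Islet RNA of 7 mice, 3 control and 4 Wnt4βKO, was measured on 1-colour arrays. The authors deposited spot intensities on a linear scale and spot flags, not normalized between arrays, per the file headers from Agilent Feature Extraction 12.0.1.1, whereas the submitters' processing notes name version 9.1. Normexp correction (offset 50) and quantile normalization, which the study's methods name, were applied to the deposited median signal and median local background. Control spots and outlier flags were left out, repeated spots averaged, and probes well above background on at least 3 arrays tested with limma 3.58.1 (R 4.3.3), two-sided, and p-values were adjusted over 26151 probes by the Benjamini-Hochberg method. The fit was checked on simulated data. The number of arrays limits the precision. The deposited log2 value table, 7 columns of per-sample values, could not be matched to the arrays and was not used.

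Accessions were named from RefSeq (GRCm38.p6), where 2281 of 2342 noncoding accessions matched, and 30 members did not. No array coordinates are given, since the arrays were designed on another build. Members and lists were chosen with earlier results of these data known. Named genes were the 20 brightest, the 12 largest rises and falls past an unadjusted p of 0.05 without overlap (9 falls met it), and members of fixed lists; others were chosen after their values were seen. Of the list of islet lncRNAs beside endocrine genes, 1 of 3 probes was a member, and of the microRNA hosts 2 of 11. Alternatives changed the background step (none, or an offset of 0), the normalization (median scaling, cyclic loess, or the scanner's processed signal over its 75th percentile), the filter, the variance model and the array weights, added a replicate block or the acinar mean as a covariate, left out each array and, in an alternative chosen after seeing the data, took the slide row as a block.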

Additional observations from a re-analysis of the deposited data

Results flagged for a closer look

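The pseudogene Gm5523, among the 20 brightest members, had 1 Wnt4βKO array apart from the other 3. Its Wnt4βKO arrays read 12.76, 12.57, 12.59 and 12.58, and the gap below the highest, Wnt4βKO 1, was 0.940 of the group's range, above Dixon's 95% critical value for 4 samples. The controls read 12.51, 12.35 and 12.68. Of 41 values examined for the Wnt4βKO group, 1 exceeded the critical value, and chance alone gives about 5%.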

How the results depend on the processing

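No member passed the adjusted threshold under any alternative. The count past an unadjusted limma p of 0.05, 40 in the main fit, was 16 under median scaling (3.17%, beside 2.94% of all tested probes, 5 higher and 11 lower against 24 and 16). With the acinar mean, which itself separated the groups, as a covariate, it was 13 (2.58%, beside 2.40%, 6 of them among the 40). When each array was left out it was 23 to 57, lowest without Wnt4βKO 1 (4.56%, beside 5.68%) and highest without Wnt4βKO 2 (11.3%, beside 8.57%). It was also 57 with no filter on dim probes, 11.3% of the members beside 5.14% of all 56605 probes, which then include undetected ones. The median difference, 0.035, was 0.081 with an offset of 0 and 0.11 with the processed signal scaled to the 75th percentile, where the median over all probes was 0.032. When each array was left out it was 0.016 to 0.061. The cause was not tested. For same-numbered mice, deviations from the group mean correlated at r of -0.13, 0.23 and -0.01, beside -0.31 to 0.16 for differently numbered mice. So few values cannot settle whether the numbers mark pairs. The labels do not state it, and the numbers were not taken as pairs. A replicate block gave 30 calls (5.95%, beside 5.98% of all tested probes) and a median of 0.027. For the named members no difference past the threshold changed sign, 120 values under the alternatives lost the unadjusted threshold, and 4 gained it. The number of arrays limits what can be called.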
